A study of Mus musculus with 16 samples.

Results

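The cytosolic ribosomal protein genes, which encode the protein part of the ribosome outside mitochondria, were followed in mouse skin over 7 days of 4-hydroxytamoxifen. A gene was included when a probe set carried its symbol alone and the symbol was that of a large-subunit protein (Rpl and a number), a small-subunit protein (Rps and a number), or Rplp0, Rplp1, Rplp2 or Rpsa, with the Rps6k kinases left out. The rule found 45 genes on 96 probe sets, and the brightest probe set on average was taken for each. All 45 passed the filter on low values and are among the 9058 genes tested. They comprise 22 genes of the large subunit, 19 of the small subunit and 4 paralogs (Rpl3l, Rpl39l, Rps27l and Rps4l). Rplp1, Rpl3 and Rpl10l are not analysed here. A further 27 ribosomal protein genes were listed only on probe sets with several symbols and are not named.

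RNA came from total skin of D2 K14deltaNB-cateninER transgenic mice and of wild type C57BL/6 mice. The transgene encodes β-catenin without its N-terminus, which makes it stable, fused to a hormone-binding domain of the oestrogen receptor. The K14 promoter drives it in basal keratinocytes and the follicle's outer root sheath, so most other cells in the sample are not expected to make the protein. 4-hydroxytamoxifen switches the fusion protein on, and the groups were transgenic skin at days 0, 1 and 7 of treatment (2, 3 and 3 arrays) and wild-type skin at days 0, 1 and 7 of the same treatment (3, 3 and 2 arrays). No group received the vehicle alone, so drug and passing time cannot be told apart within a genotype. The labels of some wild-type samples name a single mouse and the rest speak of mice, so the spread behind each p-value is that between arrays and may in part be technical.

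Each ribosome holds 1 copy of nearly every ribosomal protein, and a growing cell has to make these proteins in equal numbers. Their mRNAs are among the most abundant of the cell, and most begin with a tract of pyrimidines at the 5′ end (the TOP motif), through which mTORC1 and La-related protein LARP1 raise or hold back translation without a change in mRNA level. Ribosome assembly also needs rRNA from RNA polymerase I and a large set of nucleolar factors, many of them targets of Myc and Mycn. Growth in mass and cell division usually go together, but are controlled separately. In skin the hair follicle matrix of the growth phase is among the fastest dividing tissues of the adult.

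The start of the mRNA is the sequence feature that the family is known for, so it is shown for 8 members that the results turn on. Each line gives 10 bases before and 20 bases from the RefSeq start (GRCm38.p6), 5′ to 3′ on the gene's strand, and capitals mark the longest run of pyrimidines in the window that opens with C and holds at least 4 more.
Rpl14: ggCCCTCTCTCTTCTCgctgagcgccgcca
Rpl12: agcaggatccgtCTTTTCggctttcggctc
Rpl7a: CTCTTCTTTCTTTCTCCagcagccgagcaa
Rps9: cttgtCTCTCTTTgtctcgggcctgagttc
Rps6: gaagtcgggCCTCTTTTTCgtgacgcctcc
Rps25: ccgacatcttagcgaggctgctgtggtcta
Rpsa: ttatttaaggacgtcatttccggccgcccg
Rpl3l: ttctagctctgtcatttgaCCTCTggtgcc
These windows lie at chr9:120571507-120571536 (Rpl14, plus strand), chr2:32961702-32961731 (Rpl12, plus), chr2:26910797-26910826 (Rpl7a, plus), chr7:3704031-3704060 (Rps9, plus), chr4:86857348-86857377 (Rps6, minus), chr9:44407704-44407733 (Rps25, plus), chr9:120127756-120127785 (Rpsa, plus) and chr17:24727816-24727845 (Rpl3l, plus). Each spans the annotated transcription start, that is the end of the promoter and the first bases of the first exon. Rpl14 and Rpl7a have runs of 14 and 17 pyrimidines and Rpl12 has 6, while the windows of Rps25 and Rpsa hold none. Rpl3l, the paralog of striated muscle, has a run of 5 that begins 9 bases after the annotated start.

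RefSeq start regions were found for 39 of the 45 members. A C followed by at least 4 pyrimidines began within 10 bases of the annotated start in 26 of the 39 (66.7%), against 34.9% of 17452 other protein-coding genes, and within 5 bases in 48.7% against 21.5%. The letters CCGGAAG, the core that ETS family factors bind, stood on either strand of the 250 bases before and 50 bases from the start in 51.3% of the members and 12.9% of the other genes. TATAAA was found in the 40 bases before the start in 0 members and in 3.43% of the other genes. In transgenic skin from day 0 to day 7, the 26 members with the run near the start had a median change of 0.18 (log2), with 8 past the threshold upward and 1 downward, where 18.6% of all genes rose and 20.1% fell. The 13 without it had a median of 0.19, with 4 past the threshold upward. The 20 members with CCGGAAG had a median of 0.19, with 4 past the threshold upward, and the 19 without it 0.17, with 8 upward and 1 downward. No difference between members with and without a motif was tested. A match is a run of letters in an annotation, and the start used in skin may lie elsewhere.

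Before all arrays were scaled to 1 value their trimmed means ranged from 358 to 546, the ratio of 3′ to 5′ signal lay between 0.884 and 1.26 for Gapdh and between 1.28 and 1.87 for actin, and replicates correlated across genes at 0.974 or more. By group, both ratios were lowest at transgenic day 7 (Gapdh 0.919 ± 0.0109 and actin 1.38 ± 0.0878, SD, n = 3) and highest at wild-type day 0 (1.10 ± 0.148 and 1.64 ± 0.106, n = 3). Transgenic day 7 is also the group in which the members were highest, and the part of this in the results was not tested. Over the 16 arrays, intensities given here are scaled values, changes are differences of log2(intensity + 32), and a gene is past the threshold at a limma adjusted p under 0.05 over the 9058 genes tested.

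The members were among the brightest genes of the skin. Of the 100 brightest of 9058 genes, 28 were members, and 39 of the 45 lay above the median gene. The probe sets of 33 members averaged more than 5000 over the 6 groups, those of Rps27l and Rpl37 lay between 1000 and 5000, and 10 lay below 1000. The brightest were Rpl41 (14088, a very short basic protein), Rps29 (13176), Rplp2 (11538, an acidic protein of the stalk), Rps28 (11497) and Rpl38 (11169). The dimmest were Rpl27a (144), Rpl14 (154), Rps27 (205), Rpl12 (309) and the paralog Rps4l (336). Probe sets differ in how well they bind, so these levels do not rank the mRNAs against each other.

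**Figure D1:**
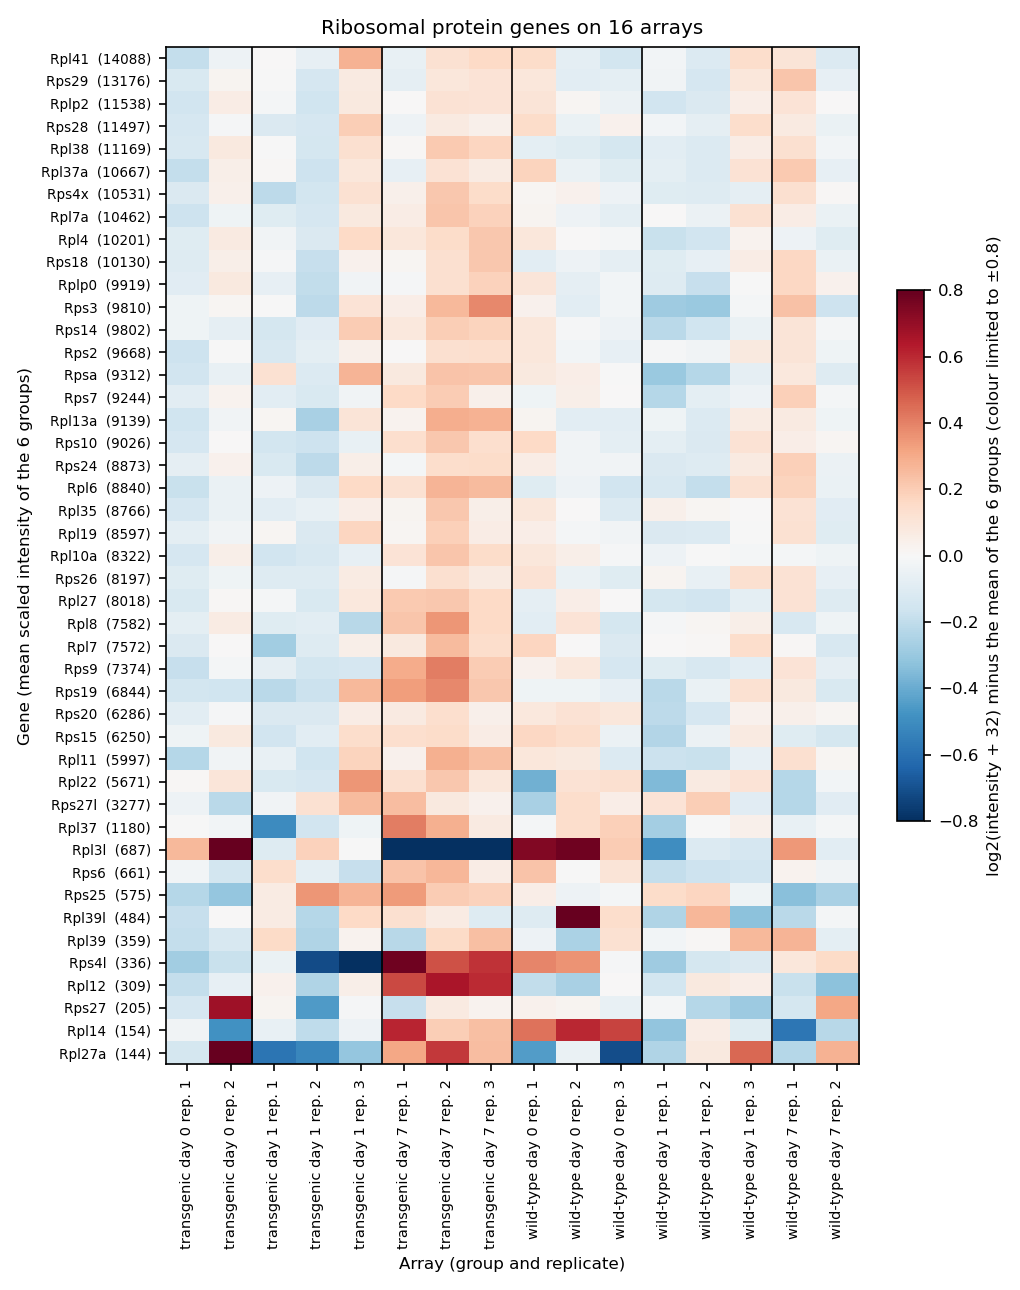
Deviation of each of the 45 members (rows, from the brightest at the top, with mean scaled intensity) on each of the 16 arrays (columns, by group) from the mean of the 6 groups, in log2 units with the colour limited to ±0.8. The 3 transgenic day 7 columns are mostly warm and Rpl3l is at the cold end of the scale there, and the dim genes at the bottom vary more between arrays than the bright ones.

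Ribosomal protein mRNAs rose a little in transgenic skin by day 7. From day 0 to day 7, 14 of the 45 members rose and 1 fell, where 18.6% of all genes rose and 20.1% fell (38.7% in either direction). Their median change was 0.19 in log2 units, a 1.14-fold rise, against 0.0064 for all genes, and 42 of the 45 changes lay above 0. The large-subunit genes had a median of 0.21 with 9 of 22 past the threshold upward, and the small-subunit genes 0.17 with 4 of 19. The 3 arrays of day 7 lay above the 2 of day 0 without overlap for 28 members and below them for 1, where the background is 29.9% and 29.7% of all genes. Scaling changes how many members pass: without further scaling 2 rose and 1 fell, and with arrays set to a common median 5 rose and 1 fell. These settings move the median of all genes to -0.13 and -0.089, and the share of all genes past the threshold that were higher from 48.0% to 29.2% and 33.9%. Above 0 lay 29 members without further scaling and 38 with a common median. Relative to the median of all genes, the members' median was 0.18 as reported, 0.17 without further scaling, 0.16 after quantile normalization and 0.17 with a common median. Without transgenic day 0 replicate 1 the members past the threshold numbered 8, and without transgenic day 7 replicate 2 they numbered 7.

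The mean log2 level of the 45 members on each array shows the same difference. It was 11.90 and 12.03 on the arrays of transgenic day 0, 11.93, 11.86 and 12.06 at day 1, and 12.11, 12.20 and 12.15 at day 7. In wild-type skin it was 12.06, 12.06 and 11.98 at day 0, 11.88, 11.94 and 12.03 at day 1, and 12.05 and 11.96 at day 7. The 3 transgenic day 7 arrays are the highest of the 16, and the other 5 groups overlap each other. Members share the array they are read on, and the replicates of transgenic day 1, from 11.86 to 12.06, lie about as far apart as the family moved by day 7. The members' share of the summed intensity of all genes tested was 3.67% ± 0.197 (SD, n = 2) in transgenic skin at day 0 and 3.70% ± 0.255 (n = 3) at day 1. It was 4.32% ± 0.166 (n = 3) at day 7, against 3.84% ± 0.242 (n = 2) in wild-type skin at day 7. In whole skin, fewer cells of a type and less RNA per cell cannot be told apart.

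**Figure D2:**
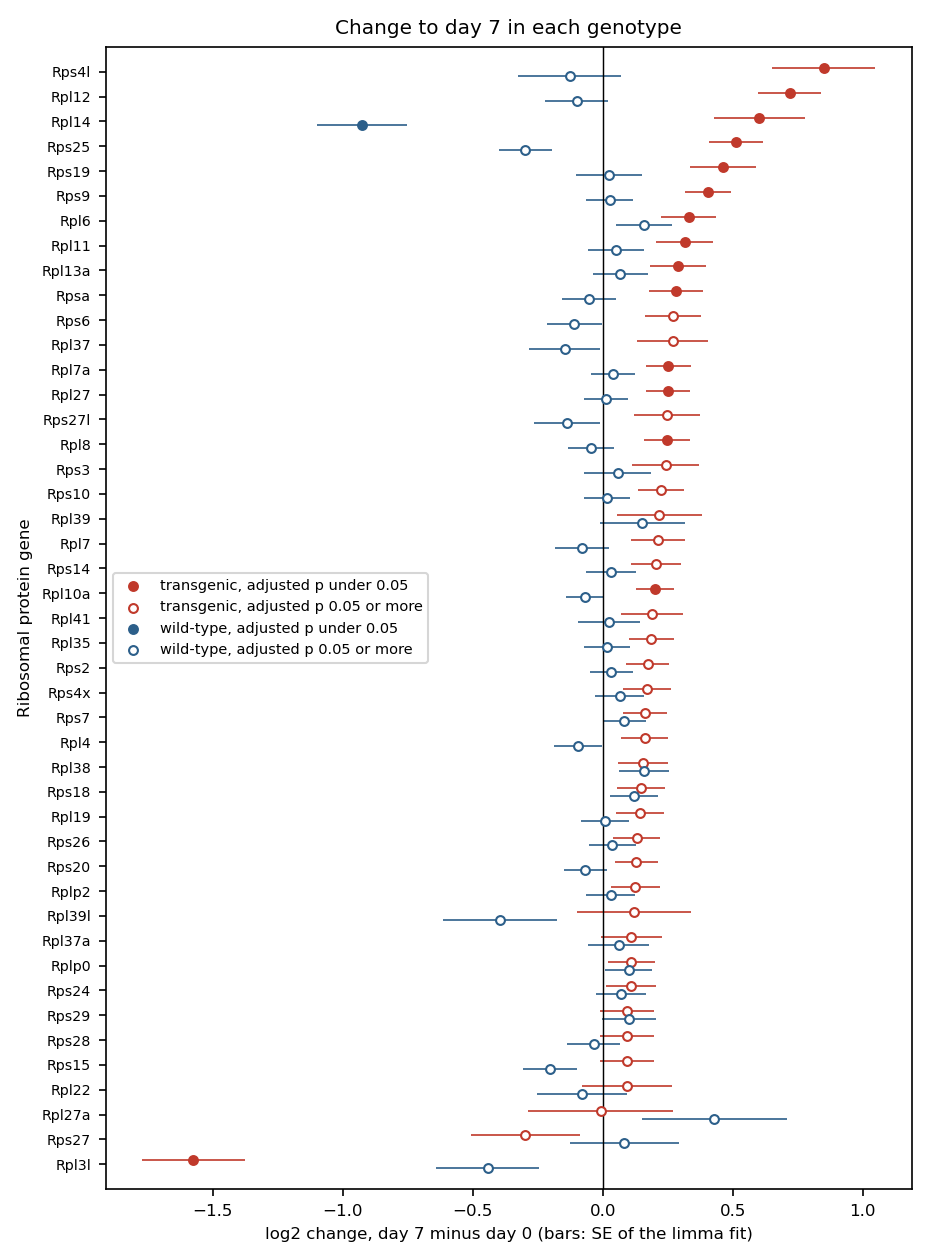
Log2 change from day 0 to day 7 of the 45 members (rows, ordered by the transgenic change) in transgenic (red) and wild-type (blue) skin, with bars for the SE of the limma fit and filled points for an adjusted p under 0.05. Transgenic points lie to the right of 0 for 42 members, and 14 of these are filled, while wild-type points lie on both sides with Rpl14 the only one filled.

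Among the large-subunit genes, Rpl12, which sits at the base of the stalk where elongation factors dock, gave the clearest rise. Its intensity was 260 and 287 at transgenic day 0, 310, 251 and 313 at day 1, and 449, 493 and 472 at day 7. Wild-type skin read 259, 246 and 303 at day 0, 270, 320 and 314 at day 1, and 263 and 234 at day 7. The transgenic day 7 arrays stand above all others. The change to day 7 was 0.72 ± 0.12 (SE, limma adjusted p = 0.000226), and the call held in all 29 alternatives, from 0.58 to 0.78.

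Rpl14, another large-subunit protein, moved in opposite directions in the 2 genotypes. It read 145 and 97.0 at transgenic day 0, 141, 125 and 143 at day 1, and 243, 174 and 181 at day 7. In wild-type skin it read 211, 242 and 230 at day 0, 112, 155 and 137 at day 1, and 88.6 and 122 at day 7. Transgenic day 7 thus overlaps wild-type day 0, and transgenic skin read lower than wild-type skin at day 0 (-0.78 ± 0.17), which did not pass the threshold (limma adjusted p = 0.616). The transgenic rise was 0.60 ± 0.17 (adjusted p = 0.0123), but 0.37 (adjusted p = 0.194) without transgenic day 0 replicate 2 and 0.47 (adjusted p = 0.0565) without transgenic day 7 replicate 1. The probe set is among the dimmest of the family, and its change is read on a scale that the added 32 compresses.

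The other 7 large-subunit genes that rose from day 0 to day 7 did so by 0.20 to 0.33. Rpl6 rose by 0.33 ± 0.11, Rpl11, known for binding Mdm2 when ribosome assembly is disturbed, by 0.31 ± 0.11, and Rpl13a by 0.29 ± 0.11. The 3 other probe sets of Rpl13a changed by 0.40, 0.64 and 1.2, and the mean over its probe sets by 0.63. Rpl7a rose by 0.25 ± 0.09, Rpl27 by 0.25 ± 0.08, Rpl8 by 0.25 ± 0.09 and Rpl10a by 0.20 ± 0.07 (limma adjusted p from 0.0225 for Rpl6 to 0.0433 for Rpl13a). The mean over the probe sets of Rpl27 changed by 0.42. Rpl7a shows the size of these changes: 9302 and 10203 at day 0, 9742, 9517 and 11001 at day 1, and 10872, 12156 and 11842 at day 7. Its day 7 arrays lie above those of day 0 and overlap those of day 1. All 7 calls were lost without transgenic day 0 replicate 1, where the changes were 0.11 to 0.27 (adjusted p 0.163 to 0.378), and all 7 without transgenic day 7 replicate 2 (0.17 to 0.30, adjusted p 0.0689 to 0.142).

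Rps25, a small-subunit protein by which some viral RNAs recruit ribosomes, was the single member past the threshold after 1 day in transgenic skin. It read 479 and 451 at transgenic day 0, 595, 734 and 692 at day 1, and 726, 657 and 651 at day 7. Wild-type skin read 591, 552 and 562 at day 0, 632, 645 and 554 at day 1, and 443 and 470 at day 7. The transgenic values after treatment lie above those before, and the wild-type values at day 7 below those at day 0. The transgenic change was 0.50 ± 0.10 at day 1 (limma adjusted p = 0.0064) and 0.51 ± 0.10 at day 7 (adjusted p = 0.000967). Leaving out transgenic day 0 replicate 2 took the day 1 change to 0.46 (adjusted p = 0.0844).

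Rps9, which helps to set the accuracy of decoding, read 6434 and 7257 at transgenic day 0, 6978, 6609 and 6665 at day 1, and 9018, 9748 and 8441 at day 7. Wild-type skin read between 6663 and 7914 over its 8 arrays, so the 3 transgenic day 7 arrays stand above the rest. The change to day 7 was 0.40 ± 0.09 (adjusted p = 0.00213), and the call held in 28 of 29 alternatives, all but the one without further scaling. Another, dim probe set of Rps9 gave 0.74 in transgenic and 0.055 in wild-type skin. A brighter one, below the chosen one, gave 0.39 and 0.23. Rps19, the gene most often mutated in Diamond-Blackfan anaemia, rose by 0.46 ± 0.13 (adjusted p = 0.00865), from 6137 and 6069 to 8566, 8849 and 7873. At day 1 it read 5833, 6030 and 8124, so replicate 3 of that day lies among the day 7 values. Its call at day 7 missed the threshold without transgenic day 0 replicate 2 (0.45, adjusted p = 0.0518).

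Rpsa, a small-subunit protein also described as a laminin receptor, rose by 0.28 ± 0.10 (adjusted p = 0.0417), but held in 17 of 29 alternatives. Without transgenic day 0 replicate 1 its change was 0.23 (adjusted p = 0.217). Rps6, the substrate of the S6 kinases downstream of mTORC1, changed by 0.27 ± 0.11 (adjusted p = 0.0581) and did not pass. Its values were 647 and 592 at day 0 and 777, 796 and 688 at day 7. Rps2 changed by 0.17 ± 0.08 (adjusted p = 0.122).

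The stalk proteins and the brightest members did not pass. Rplp0, the stalk protein often used as a reference gene, read 9270 and 10431 at transgenic day 0 and 9826, 10791 and 11263 at day 7, a difference of 0.11 (95% interval -0.08 to 0.30, adjusted p = 0.374). Rplp2 differed by 0.12 (-0.07 to 0.32), Rpl41 by 0.19 (-0.06 to 0.44), Rps29 by 0.09 (-0.13 to 0.31), Rps28 by 0.09 (-0.12 to 0.31) and Rpl38 by 0.16 (-0.05 to 0.36). These intervals hold both no change and the family's median of 0.19. Other probe sets of Rpl41 changed by 0.86 and 0.64 (both dim) and by 0.0058 (bright). Those of Rps28 changed by 0.09 and 0.08, and those of Rps29 by 0.09 and 0.15. Over all members, the 95% interval lay within 1.5-fold in either direction for 35 of 45.

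The 33 members above 5000 had a median change to day 7 of 0.17, all above 0, and 10 of them rose. The 160 other genes of that brightness had a median of -0.095, with 14 past the threshold upward and 50 downward. Over all genes tested 18.6% rose and 20.1% fell. The 10 members below 1000 had a median of 0.24, with 4 past the threshold upward and 1 downward. The 4 largest rises came from probe sets below 1000.

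Of the 4 paralogs, Rps4l rose, Rpl3l fell, and Rps27l and Rpl39l did not pass. Rps4l, annotated as a relative of Rps4x, gave the largest rise to day 7 among the members. It read 259 and 280 at transgenic day 0, 307, 183 and 148 at day 1, and 574, 471 and 495 at day 7, against 430, 420 and 318, then 257, 288 and 294, then 343 and 360 in wild-type skin. Its change was 0.85 ± 0.20 (limma adjusted p = 0.00301), and the call held in all 29 alternatives. Rps4x itself differed by 0.17 ± 0.09 (adjusted p = 0.168). Rps27l, known as a target of p53, differed by 0.25 ± 0.13 (adjusted p = 0.136), and its parent Rps27 by -0.30 ± 0.21 (adjusted p = 0.286). Rpl39l, known from testis, differed by 0.12 ± 0.22 and Rpl39 by 0.22 ± 0.16, neither past the threshold. Close relatives and processed pseudogenes can share probes, so a change of 1 member of such a pair is uncertain.

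Rpl3l, which takes the place of Rpl3 in ribosomes of skeletal and heart muscle, was the single member that fell. It read 766 and 1156 at transgenic day 0, 588, 726 and 632 at day 1, and 319, 273 and 294 at day 7. In wild-type skin it read 1083, 1110 and 736 at day 0, 441, 585 and 575 at day 1, and 816 and 597 at day 7. The transgenic day 7 values are the lowest of the 16 arrays. The change to day 7 was -1.57 ± 0.20 (adjusted p = 1.41e-05) in transgenic and -0.44 ± 0.20 (adjusted p = 0.16) in wild-type skin. Skeletal muscle markers moved the same way in transgenic skin, where 20.1% of all genes fell and 18.6% rose by day 7. Of the 11 markers, 9 fell and 0 rose, with a median of -0.99. Their summed intensity was 83361 to 99744 at transgenic day 0 and 51401 to 59586 at day 7, against 90818 to 102519 at wild-type day 7. Their part in the fall of Rpl3l was not tested. In wild-type skin at day 1, Rpl3l fell by 0.82 on the log2 scale (adjusted p = 0.00425). There 12.3% of all genes fell, and 2 of the 11 muscle markers did. The sum of these markers was 86354 to 100446 at wild-type day 0 and 74405 to 87374 at day 1.

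**Figure D3:**
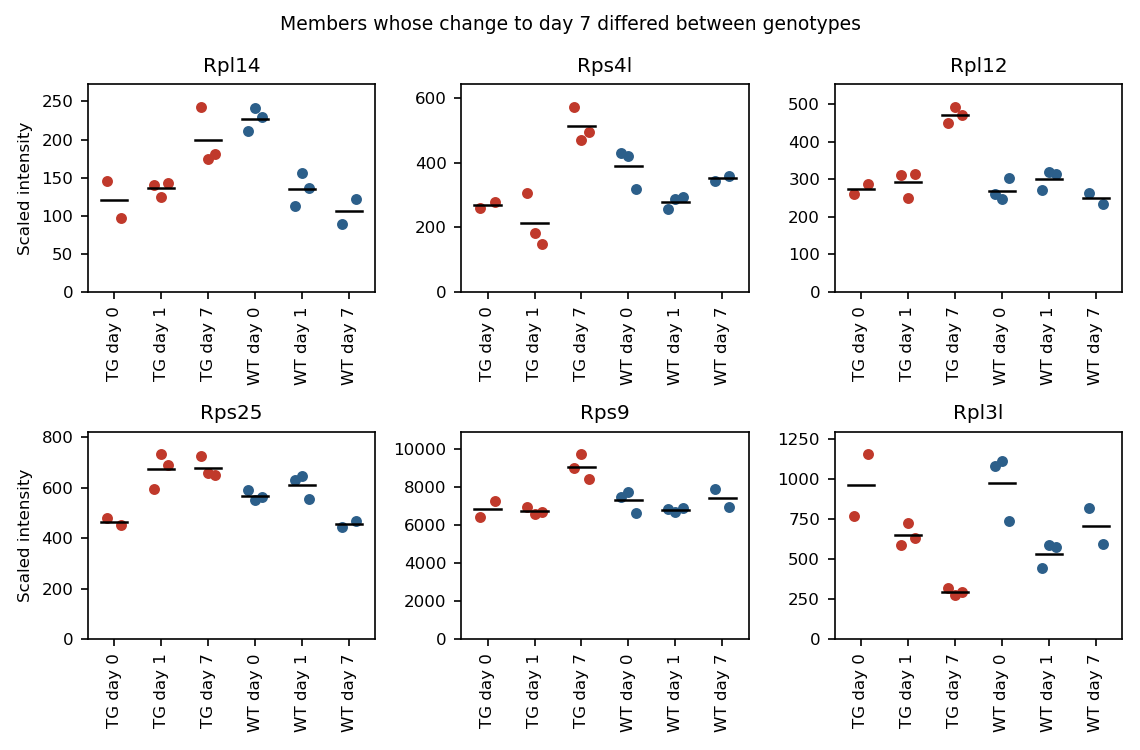
Scaled intensity (linear axis from 0) on each array (points) of the 6 members whose change to day 7 differed between genotypes, with the group mean as a bar, transgenic in red and wild-type in blue. Rpl12, Rps9 and Rps4l have their highest mean at transgenic day 7, Rpl3l its lowest, and Rpl14 and Rps25 cross between the genotypes.

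After 1 day the family was near its level at day 0 in both genotypes. In transgenic skin Rps25 alone rose and 0 members fell by limma, with 3 members at an unadjusted p under 0.05, where 6.58% of genes rose and 4.13% fell (10.7% in either direction). The members' median was 0.022 against -0.034 for all genes (-0.11 for the members without further scaling), and the 95% interval lay within 1.5-fold for 40 of 45. Single arrays move this count: it was 4 (1 higher and 3 lower) when transgenic day 0 replicate 1 was left out, 0 when replicate 2 of that group was, and 2 when replicate 1 of transgenic day 1 was. In wild-type skin 3 members fell and 0 rose, with 6 at an unadjusted p under 0.05, where 10% of genes rose and 12.3% fell (22.4%). These were Rpl3l, Rpl14 (-0.64 ± 0.16, adjusted p = 0.0085) and Rps6 (-0.28 ± 0.10, adjusted p = 0.0474). The wild-type median was -0.050 against -0.025 for all genes, and 40 of 45 intervals lay within 1.5-fold. The members' median was 0.021 without further scaling (all genes 0.041) and -0.15 with a common median (all genes -0.12, 6 members lower). The call of Rps6 held in 12 of 29 alternatives and was lost without wild-type day 0 replicate 1 (-0.22, adjusted p = 0.152). The count was 5 without transgenic day 1 replicate 3.

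At 7 days wild-type skin differed from untreated wild-type skin in 1 member. Rpl14 fell by 0.93 on the log2 scale (SE 0.17, limma adjusted p = 0.00363), and 0 rose, where 5.46% of genes rose and 5.94% fell (11.4%), with 3 members at an unadjusted p under 0.05. The median of the members was 0.023 and that of all genes -0.026, 27 of the 45 lay above 0, and 41 intervals lay within 1.5-fold. The sign of the members' median turned with the scaling, to -0.022 without further scaling (15 above 0), -0.040 after quantile normalization (13 above 0) and -0.036 with a common median (13 above 0). Without wild-type day 7 replicate 1 the median was -0.069 and the count 0, with Rpl14 at -0.75 (adjusted p = 0.0680).

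From day 1 to day 7 in transgenic skin, 16 members rose and Rpl3l fell, where 21.5% of genes rose and 22.8% fell (44.3%). The median was 0.17 and 44 of the 45 lay above 0, but with arrays set to a common median it was 0.024, with 24 above 0. That setting moves the median of all genes from 0.020 to -0.12, and 41 members lay above the median of all genes in both. Of the 17 members past the threshold, 6 passed with a common median and 4 without further scaling. The largest rises were those of Rps4l (1.21 ± 0.18, limma adjusted p = 6.65e-05), Rpl27a (0.84 ± 0.25, adjusted p = 0.0123), Rpl12 (0.64 ± 0.11, adjusted p = 0.000217), Rpl37 (0.49 ± 0.12, adjusted p = 0.00449) and Rpl14 (0.45 ± 0.16, adjusted p = 0.0284). Rpl27a read 120 and 280 at day 0, 79.5, 84.5 and 103 at day 1 and 175, 215 and 166 at day 7, so it lay low at day 1 and its day 7 change from day 0 was -0.01 ± 0.28. The count of members past the threshold was 10 without transgenic day 1 replicate 1, 9 without its replicate 2 and 9 without transgenic day 7 replicate 2. Without the last of these Rpl27a missed the threshold (0.75, adjusted p = 0.0522). This comparison and the change from day 0 share the day 7 arrays.

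The genotypes differed in 0 members at day 0 (limma, with 4 at an unadjusted p under 0.05) and in 0 at day 1 (3 at an unadjusted p under 0.05), where 0.011% and 1.3% of all genes differed (0.707% higher in transgenic skin at day 1). At day 0 the arrays of the 2 genotypes did not overlap for 8 members, all lower in transgenic skin, where 7.68% of all genes were higher and 11.2% lower without overlap. The members' median difference at day 0 was -0.065 against -0.0082 for all genes, with 8 of the 45 above 0. Without further scaling it was 0.096 against 0.14 for all genes, with 40 above 0. At day 7, 6 members were higher in transgenic skin and 1 lower, where 19.4% of genes were higher and 21.1% lower (40.5%). The higher ones were Rpl12 (0.84 ± 0.12, adjusted p = 6.31e-05), Rpl14 (0.75 ± 0.17), Rps25 (0.54 ± 0.10), Rps19 (0.33 ± 0.13), Rpl8 (0.33 ± 0.09) and Rps9 (0.28 ± 0.09), and Rpl3l was lower (-1.16 ± 0.20, adjusted p = 0.000259). The median difference was 0.15 against 0.0086 for all genes, with 39 members above 0. Quantile normalization placed 18 members higher and 1 lower, and a common median 3 higher and 1 lower. Without wild-type day 7 replicate 1, Rpl14 (0.57, adjusted p = 0.0601) and Rpl8 (0.28, adjusted p = 0.0816) missed the threshold. Rps19 held in 13 of 28 alternatives.

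The change to day 7 itself differed between genotypes for 6 members, where 23.8% of all genes differed (12% upward and 11.7% downward in transgenic skin). It was larger in transgenic skin for Rpl14 (1.53 ± 0.25, limma adjusted p = 0.000517), Rps4l (0.98 ± 0.28, adjusted p = 0.0199), Rpl12 (0.82 ± 0.17, adjusted p = 0.003), Rps25 (0.81 ± 0.15, adjusted p = 0.00107) and Rps9 (0.38 ± 0.13, adjusted p = 0.0415), and smaller for Rpl3l (-1.13 ± 0.28, adjusted p = 0.00845). The members' median was 0.19 against 0.0024 for all genes, and 40 of 45 lay above 0. This term also holds the difference between genotypes at day 0, where the members' median was -0.065. Mean intensities there, transgenic then wild-type, were 121 and 228 for Rpl14, 270 and 390 for Rps4l, and 465 and 568 for Rps25. They were 6845 and 7312 for Rps9, 274 and 269 for Rpl12, and 961 and 976 for Rpl3l. Between genotypes at day 7, Rps4l was not past the threshold. Of these 6, 5 are dim probe sets, and Rps9 is the single one above 5000. The genotypes lay closer on the brighter of the other probe sets of Rps9 (0.39 transgenic, 0.23 wild-type). They lay further apart on the dim one (0.74 and 0.055). The difference between genotypes was not tested on either of them singly. The change to day 1 differed for 0 members by limma (5 at an unadjusted p under 0.05, 0.287% of all genes past the threshold).

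Beside the genes of cell division, the ribosomal protein mRNAs had small median changes at both times. The lists were chosen for their function, and differences between lists were not tested. Counts and medians of the lists beside the members are given under the trimmed-mean scaling alone. Other scalings moved the median of all genes as well as that of the members. Of the members, 33 are read on probe sets above 5000. Dimmer probe sets of the same gene read higher for Rpl7 (0.55 and 0.34 beside 0.21, transgenic day 7 minus day 0) and Rpl13a (0.40, 0.64 and 1.2 beside 0.29). They read lower for Rpl37a (-0.67 and 0.065 beside 0.11) and Rps14 (0.072 beside 0.21), and other genes went either way. The 51 probe sets not chosen had a median of 0.22. What probe set brightness does to the comparison with other lists was not tested. By day 1, 22 of 49 mitosis genes rose in transgenic skin and 23 of 49 in wild-type skin, each with a median of 0.50, where 6.58% and 10% of all genes rose, while the ribosomal protein medians were 0.022 and -0.050. Of 39 DNA replication genes, 17 rose in transgenic (median 0.40) and 8 in wild-type skin (0.16). By day 7 in transgenic skin 46 of 49 mitosis genes and 36 of 39 DNA replication genes had risen, where 18.6% of all genes had. Their medians were 1.65 and 0.82, against 0.19 for the ribosomal proteins. In wild-type skin at day 7, 6 of 49 mitosis genes were up (0.35) and 12 of 39 DNA replication genes down (-0.29), while the ribosomal protein median was 0.023. There 5.46% of all genes were up and 5.94% down. Mki67, the proliferation antigen, read 442 and 424 at transgenic day 0, 765, 881 and 747 at day 1 and 2289, 2133 and 2063 at day 7, a rise of 2.24 ± 0.14 (adjusted p = 2.18e-08) from day 0 to day 7. In wild-type skin it read 367 to 605 at day 0 and 586 and 643 at day 7.

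**Figure D4:**
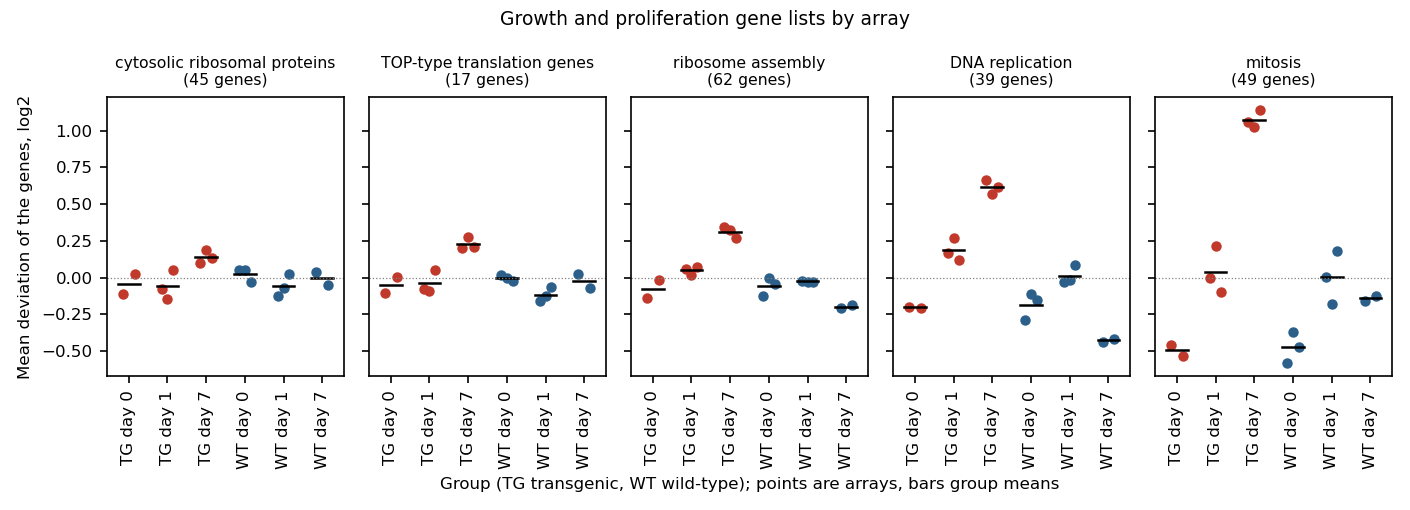
Mean deviation of the genes of 5 lists from their mean over the 6 groups, in log2 units on 1 shared axis, for each array (points) and group (bars are means), transgenic (TG) in red and wild-type (WT) in blue. At transgenic day 7 the group mean was 0.14 for the ribosomal proteins, 0.23 for the TOP-type translation genes, 0.31 for ribosome assembly, 0.62 for DNA replication and 1.07 for mitosis.

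The machinery that builds ribosomes had a larger median change than the ribosomal proteins. Of 62 ribosome assembly factors, 36 rose and 1 fell in transgenic skin from day 0 to day 7, with a median of 0.41. Over all genes 18.6% rose and 20.1% fell. Fbl, the methyltransferase of box C/D particles that modifies rRNA, rose by 0.91 ± 0.12 (adjusted p = 2.27e-05), from 1021 and 849 to 1829, 1711 and 1814. Ncl, the major nucleolar RNA-binding protein, rose by 0.60 ± 0.08 and Nop16 by 0.76 ± 0.11. Fbl had risen already at day 1 (0.59 ± 0.12, adjusted p = 0.0061), when 2 of the 62 had, the other being Rrp9 (1.38 ± 0.42, adjusted p = 0.0465). At that time 6.58% of all genes had risen in transgenic skin. In wild-type skin at day 7 the list had 0 genes up and 2 down (median -0.16), where 5.46% of all genes were up and 5.94% down. The change to day 7 was larger in transgenic skin for 34 of the 62, and for 12% of all genes. Of 12 genes of RNA polymerase I and its factors 5 rose by day 7 in transgenic skin (median 0.25), Polr1e by 0.67 ± 0.15, Polr1a by 0.52 ± 0.16 and Polr1c by 0.40 ± 0.12.

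Translation genes outside the rule had medians near that of the ribosomal proteins. Of 17 genes of the translation machinery with TOP-type mRNAs, 8 rose and 0 fell by day 7 in transgenic skin, with a median of 0.24. In this comparison, which also holds for the lists below, 18.6% of all genes rose and 20.1% fell. Npm1, a nucleolar chaperone, rose by 0.48 ± 0.09, Hnrnpa1 by 0.75 ± 0.13, Pabpc1, the poly(A) binding protein, by 0.38 ± 0.09, and Fau, whose product is cleaved to a ubiquitin-like protein and a small-subunit ribosomal protein, by 0.24 ± 0.09. The elongation factors Eef1a1 (0.18 ± 0.09, adjusted p = 0.122) and Eef2 (0.22 ± 0.10, adjusted p = 0.106) did not pass. Rpl22l1, the paralog of Rpl22 outside the rule, rose by 0.51 ± 0.19 (adjusted p = 0.042), and Rpl22 differed by 0.09 ± 0.17. Of 25 initiation factors 9 rose and 2 fell (median 0.22), led by Eif4a1, the RNA helicase of the cap-binding complex (0.87 ± 0.17), and Eif3d (0.50 ± 0.09). Among 71 mitochondrial ribosomal protein genes, which serve the separate ribosome of mitochondria, 19 rose and 2 fell, with a median of 0.16.

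Of 15 growth signalling genes 2 rose and 2 fell in transgenic skin from day 0 to day 7, where 18.6% of all genes rose and 20.1% fell. Their median was 0.023, against 0.0064 for all genes. Mycn, a Myc family factor expressed in the hair matrix, read 74.3 and 105 at day 0, 95.6, 75.7 and 57.8 at day 1 and 796, 735 and 759 at day 7, a rise of 2.72 ± 0.22 (adjusted p = 1.8e-07). Mycl rose by 0.54 ± 0.18, Tsc2, an inhibitor of mTORC1, fell by 0.41 on the log2 scale (SE 0.10), and Myc differed by -0.080 ± 0.11 (adjusted p = 0.617). The mRNA of Eif4ebp1, the cap-binding inhibitor controlled by mTORC1, differed by -0.13 ± 0.12 (adjusted p = 0.411). mRNA levels do not show the phosphorylation of these proteins or the translation of TOP mRNAs.

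Markers of several cell types moved from day 0 to day 7 in transgenic skin, where 18.6% of all genes rose and 20.1% fell. All 10 markers of the growing hair follicle rose in transgenic skin by day 7, and their summed intensity went from 776 to 1010 at day 0 to 32286 to 47079 at day 7, against 709 to 715 at wild-type day 7. Of 10 basal keratinocyte markers 6 fell and 0 rose (sum 44283 to 50858 at day 0, 34630 to 35466 at day 7), and of 7 fat cell markers 6 fell and 0 rose (24544 to 30221, then 11549 to 13770). Of 12 macrophage markers 0 passed at transgenic day 7, by limma, while 10 rose at transgenic day 1 and 11 each at wild-type days 1 and 7. The shares of all genes that rose there were 6.58%, 10% and 5.46%. The summed dermal fibroblast markers read 48719 to 50640 at transgenic day 0 and 44339 to 54418 at day 7. Those of differentiated keratinocytes read 42529 to 47803, then 37272 to 40809. The part of these cell types in the level of the ribosomal protein mRNAs was not tested.

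Other probe sets give a second reading of the same genes. Of the 51 probe sets of members that were not chosen, 47 lay above 0 in the transgenic change to day 7, with a median of 0.22, and 25 in the wild-type change. Of the 51, 5 lay below the added 32 in every group, at background, and are no reading of their genes (1 each of Rpl27a, Rps4x and Rpsa and 2 of Rps18). Of the other 46, 43 lay above 0 in the transgenic change and 22 in the wild-type change. Of the 14 members that rose, 3 (Rpl13a, Rpl27 and Rps9) had another probe set outside those 5, 7 in all, and all 7 lay above 0. The 102 probe sets that list a ribosomal protein gene together with other genes had a median of 0.18, with 98 above 0, in transgenic skin and -0.020, with 46 above 0, in wild-type skin. Probe sets of 1 gene are read from the same arrays and are no further replicates.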

How the data were processed

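Whole-skin RNA was measured on 16 Affymetrix Mouse Expression Set 430 A arrays, grouped by the genotype and day in the sample titles. The values deposited by the authors are probe set intensities on a linear scale, and the software and scaling behind them are not given in the sources used here. Arrays were scaled to 1 mean, trimmed by 2% at each end, and taken as log2(intensity + 32), which understates changes of dim genes. A probe set was kept if it passed the 40th percentile of the array on 2 or more arrays, and symbols came from the platform annotation (20380 probe sets with 1 symbol, 691 with several, 1555 unlisted). The brightest of each gene's probe sets was used, which left 9058 genes.

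Group means were fitted in limma 3.58.1 (R 4.3.3, variance trend, 10 residual degrees of freedom), with two-sided tests and Benjamini-Hochberg adjustment within each of 10 comparisons. The fit was run on simulated data with noise drawn independently for each gene and array. Members share deviations of the array, so that run is no check of small changes over the family. Members, gene lists, alternatives and the naming rule were all chosen with earlier results of these data known. By that rule the text names up to 5 rises and 5 falls per comparison, the 5 brightest and 5 dimmest members, paralogs with their parents, a fixed set, and up to 3 genes per list. The other members past the threshold at transgenic day 7, with the values of Rpl7a, were added after their values were seen. The number of arrays limits the precision.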

Additional observations from a re-analysis of the deposited data

Results flagged for a closer look

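For 6 of the 45 members the change to day 7 differed between transgenic and wild-type skin, where 23.8% of all genes differed. The test was the interaction term of the limma fit, adjusted over all genes. The difference, transgenic change minus wild-type change, was 1.53 for Rpl14, 0.98 for Rps4l, 0.82 for Rpl12, 0.81 for Rps25, 0.38 for Rps9 and -1.13 for Rpl3l. Rpl14 rose in transgenic skin and fell in wild-type skin, and its call held in all 28 alternatives, between 1.00 and 1.76. Its mean at day 0 was already 121 in transgenic and 228 in wild-type skin. Rpl12 and Rps25 each held in 28 of 29, with the exception of no further scaling (adjusted p = 0.152 and 0.241). Rps4l held in 26 of 29, and it missed the threshold without transgenic day 0 replicate 1 (0.93, adjusted p = 0.0659) and without wild-type day 7 replicate 1 (0.95, adjusted p = 0.0657). Rpl3l missed it without transgenic day 0 replicate 2 (-0.84, adjusted p = 0.0571) and without wild-type day 7 replicate 1 (-0.92, adjusted p = 0.0557). Rps9 held in 17 of 29, and lay at 0.29 (adjusted p = 0.172) without transgenic day 0 replicate 1.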

How the results depend on the processing

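Without further scaling, members past the threshold numbered 0 for transgenic day 1 against day 0, 3 for day 7 against day 0, 4 for day 7 against day 1, 1 for wild-type day 1, 3 between genotypes at day 7 and 2 for the genotype difference in the change to day 7. The medians there were -0.11 for transgenic day 1, 0.035 for day 7, 0.10 between genotypes at day 0, and -0.13 and 0.077 for the genotype difference to day 1 and to day 7. Quantile normalization gave 1 between genotypes at day 1, 19 at day 7 and 12 for the difference to day 7. A common median gave 6 for transgenic day 7 against either day, 6 for wild-type day 1, 2 for wild-type day 7, and 1 and 4 between genotypes at days 1 and 7, with medians of 0.084, 0.024 (against day 1), -0.15, 0.10 and 0.054 (between genotypes) and 0.21 (difference to day 1). The filter at the 60th percentile gave 0 at wild-type day 7, and the mean over probe sets 13 between genotypes at day 7. Probe sets with the plain suffix alone gave 8 and 7 for transgenic day 7 against days 0 and 1 and 2 for wild-type day 7, with medians of -0.079 at wild-type day 7 and 0.30 for the difference to day 7. Fits of the compared groups alone gave 0, 9 and 10 in transgenic skin for day 1, day 7 and day 7 against day 1, and no variance trend gave 9 for day 7. Counts of members under other settings, here and wherever an array is left out, stand without the share of all genes past the threshold in that setting. They do not show whether the members moved apart from all genes. The cause of these shifts was not tested.

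Leaving out 1 array at a time gave counts of 0 to 4 for transgenic day 1, 7 to 17 for day 7, 9 to 24 for day 7 against day 1, 2 to 5 and 0 to 1 for wild-type days 1 and 7, 0 to 1 and 5 to 10 between genotypes at days 1 and 7, and 4 to 7 for the difference to day 7. Medians ranged from -0.05 to 0.08, 0.12 to 0.25 and 0.13 to 0.23 in transgenic skin, -0.11 to -0.02 and -0.069 to 0.093 in wild-type skin, -0.12 to -0.01, -0.04 to 0.07 and 0.08 to 0.18 between genotypes, and -0.0031 to 0.13 and 0.13 to 0.27 for the differences. No sign of a called member turned in any alternative, and 1177 of 1424 repeated calls held. That tally includes fits without an array of a group outside the comparison, in which the estimate could hardly change. Samples share only a replicate number: deviations of same-numbered samples correlated at a median of 0.03 (-0.25 to 0.19). With the replicate number as a block the counts were 2 for transgenic day 1, 10 for day 7 and 8 for the difference to day 7. It kept 9 of the 15 members called for day 7 and 16 of 17 for day 7 against day 1 (Rps4x missed, adjusted p = 0.0528), and 6 of 7 between genotypes at day 7 (Rps19 missed, adjusted p = 0.0893); every other call of the remaining comparisons was kept.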
